A study of Mus musculus with 4 samples.

Results

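The 10 mesenchymal and fibroblast transcription factors *Twist1*, *Twist2*, *Prrx1*, *Prrx2*, *Snai1*, *Snai2*, *Zeb1*, *Zeb2*, *Tcf21* and *Foxf1* were chosen by name, without use of their values, from the 24391 gene symbols counted by RNA-seq in mouse embryonic fibroblasts (MEFs). MEFs are primary connective tissue cells, here grown from E13.5 (mid-gestation) embryos and held in quiescence. The 2 WT and 2 *Phf2* KO libraries, numbered replicates 1 and 2 in each group, all carried the genotype Phf2 flox/flox, ERCre/+, in which CreERT2 is expressed from the Rosa26 locus. The KO libraries alone were labelled with tamoxifen, and the protocol describes 0.5 µM 4-hydroxytamoxifen (4-OHT) for 7 days. Phf2 is a Jumonji-family protein that reads methylated histone H3, and its loss was the variable under study. No library had 4-OHT without recombination, so loss of Phf2, Cre activity and 4-OHT cannot be told apart. The labels do not say whether the replicates came from separate embryos, so the p-values measure only the spread between these libraries. The sex-linked counts given further on show that replicates 1 and 2 of a group were not of the same embryo.

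The factors fall into families that work in different ways. Twist1 and Twist2 are basic helix-loop-helix (bHLH) proteins that bind E-boxes, short DNA sites of the form CANNTG, as dimers with E proteins, and Id proteins inhibit bHLH dimers by holding the E proteins. Snai1 (Snail), Snai2 (Slug), Zeb1 and Zeb2 are zinc finger repressors that bind the E-box variants CAGGTG and CACCTG and shut off epithelial genes such as *Cdh1* in epithelial-mesenchymal transition. Prrx1 and Prrx2 are paired-related homeodomain proteins of limb and facial mesenchyme. Tcf21 is a bHLH factor of visceral mesenchyme, and Foxf1 is a forkhead factor of the mesenchyme around gut and lung.

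Promoter sequence was taken from RefSeq (GRCm38.p6, a later build than the mm9 of the counts) as the 250 bases before each annotated start. Such windows were found for 7 of the 10 factors, 10 windows in all with 4 for *Zeb2*, and none for *Snai2*, *Zeb1* or *Foxf1*. The *Snai1* window is shown because it was the 1 window of the 10 that held an E-box (CANNTG, which reads as the same pattern on both strands), where 66.2% of 32851 promoter windows held one. Its E-box, in capitals, is CACCTG, a variant that Snail and Zeb proteins bind, and starts 126 bases before the *Snai1* start. CAGGTG or CACCTG, which are each other's reverse complement, occurred in 17.2% of all windows. The window lies on the plus strand at chr2:167537945-167538194.
Snai1: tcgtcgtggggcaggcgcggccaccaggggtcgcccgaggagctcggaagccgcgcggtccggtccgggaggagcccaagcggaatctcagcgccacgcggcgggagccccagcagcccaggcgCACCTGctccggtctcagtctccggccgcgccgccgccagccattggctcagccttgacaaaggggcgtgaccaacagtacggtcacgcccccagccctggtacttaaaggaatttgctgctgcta
A match is a description of the letters and says nothing of binding in these cells.

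The windows of the paralogs *Prrx1* (chr1:163313651-163313900, minus strand) and *Prrx2* (chr2:30845117-30845366, plus strand) are shown because both genes were expressed at a like level per exonic base while *Prrx2* was called between replicate numbers and *Prrx1* was not, a contrast that was itself not tested. Capitals mark CG dinucleotides, the sites that are methylated in mammalian DNA.
Prrx1: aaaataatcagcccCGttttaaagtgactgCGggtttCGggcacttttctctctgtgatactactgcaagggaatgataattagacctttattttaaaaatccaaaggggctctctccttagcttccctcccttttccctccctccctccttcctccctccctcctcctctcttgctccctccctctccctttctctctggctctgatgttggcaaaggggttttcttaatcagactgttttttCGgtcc
Prrx2: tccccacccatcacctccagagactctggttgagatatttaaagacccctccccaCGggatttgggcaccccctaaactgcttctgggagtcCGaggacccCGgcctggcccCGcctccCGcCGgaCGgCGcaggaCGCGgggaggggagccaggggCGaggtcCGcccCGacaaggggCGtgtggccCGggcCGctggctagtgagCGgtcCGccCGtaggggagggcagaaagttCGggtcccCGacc
The *Prrx1* window held 4 CG dinucleotides and was 47.6% G or C, and the *Prrx2* window held 21 and was 70.0% G or C. The medians over all windows were 6 CG dinucleotides and 52.4% G or C, so the paralogs lay on either side of both. Relative to the number that the base composition gives, CG was at 0.321 in *Prrx1*, 0.686 in *Prrx2* and 0.882 in *Snai1*, against a median of 0.374.

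The libraries held between 21094743 and 26094268 counts, and 13668 genes passed the filter on low counts, all 10 factors among them. The counts of *Phf2* were 3244 and 3680 in WT and 1454 and 2158 in KO, or 138.2 ± 5.11 and 79.97 ± 13.9 CPM (reads of a gene relative to its library, TMM-scaled; SD, n = 2 in each group). Its log2 fold change was -0.79 (SE 0.14), with an adjusted p of 0.999 by edgeR's quasi-likelihood test and 7.67e-19 with the replicate number as a block. Counts over the whole gene do not show whether the floxed part was deleted, so the fold of 0.579 does not measure the loss of Phf2 protein. The paper reports depletion of the protein by immunoblot in *Phf2* KO MEFs. Replicates 1 of WT and KO had 10042 and 8336 counts of the X-inactivation RNA *Xist* and replicates 2 had 3 and 12, while Y-linked *Ddx3y* had 6 and 10 counts in replicates 1 and 1271 and 1295 in replicates 2. Replicates 1 therefore had the RNA of female cells and replicates 2 that of male cells in both groups. All 12 fibroblast markers were detected, led by *Col1a1*, with summed levels of 55125 to 66672 CPM. The 20 macrophage markers summed to 4530 and 5116 CPM in replicates 1 and 985 and 1530 CPM in replicates 2, led by the lysozyme gene *Lyz2*. Endothelial markers summed to 13.1 to 24.9 CPM, led by *Kdr*, with *Tie1* and *Cldn5* at 0 in every library. Muscle markers summed to 14.9 to 54.7 CPM, led by *Des*, with 5 of 8 at 3 counts or fewer in every library, and neural markers to 82.9 to 99.0 CPM, led by *Map2*, with 2 of 8 at 3 counts or fewer. RNA of macrophages is thus measured together with that of fibroblasts. The low endothelial, muscle and neural sums do not show whether such cells were present. In such bulk samples fewer cells of a type and less RNA per cell cannot be told apart.

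*Tcf21* was close to the detection limit, *Foxf1* was low, and the other 8 factors were well expressed. Levels are compared between genes as CPM per kilobase of exonic sequence, each the mean over the 4 libraries. *Twist1* was highest at 83.2 and *Twist2* followed at 59.7. *Prrx1* at 25.6 and *Prrx2* at 24.7 could not be placed in order, since their ranges over libraries (24.5 to 27.3 and 21.0 to 28.9) overlapped. *Snai1* at 17.2, *Snai2* at 9.72, *Zeb1* at 7.93 and *Zeb2* at 4.65 came next, and *Foxf1* at 1.85 and *Tcf21* at 0.392 were lowest. Apart from the *Prrx1* and *Prrx2* pair, the ranges of neighbours in this order did not overlap. The order depends on which exons are transcribed. Divided by the longest transcript instead, *Prrx1* stood at 43.5 above *Prrx2* at 33.7, *Zeb1* at 13.3 stood above *Snai2* at 9.72, and *Snai2* and *Zeb2* at 7.84 overlapped. In CPM not divided by length, *Prrx1* lay at the 96.4th percentile of the 13668 genes tested, *Twist1* at the 89.9th, *Snai2* at the 48.5th, *Foxf1* at the 16.2nd and *Tcf21* at the 2.22nd.

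**Figure D1:**
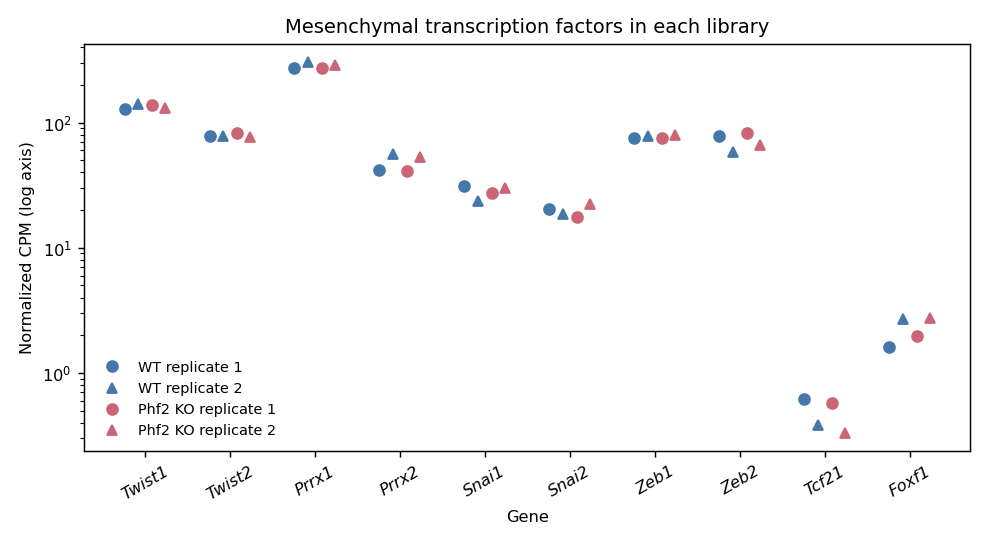
Normalized CPM of the 10 factors (log axis) in each of the 4 libraries, blue for WT and red for Phf2 KO, circles for replicates 1 and triangles for replicates 2. Each gene's 4 points lie close together beside the span between genes, from *Prrx1* at 271.6 to 302.2 CPM down to *Tcf21* at 0.333 to 0.622 CPM.

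The first comparison asks whether these factors differed between *Phf2* KO and WT MEFs. None was called at an adjusted p under 0.1, and for *Twist1*, *Twist2*, *Prrx1* and *Zeb1* the 95% interval of the fold lay within 0.813 to 1.19. The fitted log2 fold changes (KO over WT) ran from -0.15 in *Tcf21* to 0.13 in *Foxf1*, with 7 positive and 3 negative, a median of 0.02 and a median size of 0.0451. Over all genes tested, the median size was 0.122, and 0.0905 among the 7035 genes at or above the level of *Snai2*. Of the 10 factors, 0 were called by edgeR's quasi-likelihood test, where 0.00732% of all genes were, and 0 had an unadjusted p under 0.05, where 4.21% of all genes did. Every factor had an adjusted p of 0.999, as did *Phf2* itself, so this value does not set the factors apart from a gene that differed. In 0 of the 10 did both KO libraries lie above or below both WT libraries, against 33.5% of all genes. DESeq2 also called 0 of the 10, where 0.400% of all genes it tested were called. limma-voom called 0 as well, and its share over all genes is not given here. The blocked fit, with replicate number as a term, called 0 of the 10, where 11.0% of all genes were called. At such shares, 0 of 10 says little about the factors. A p that misses the threshold does not show that the levels were alike, and the intervals are those of the fit on genotype alone, which counts the difference between replicate numbers as spread. With the block, the SE of the log2 fold change fell from 0.21 to 0.09 in *Prrx2* and from 0.19 to 0.08 in *Zeb2*, so the intervals given for these genes are wider than with the numbers paired. It also fell in *Snai1* (0.17 to 0.10) and *Snai2* (0.16 to 0.11), whose pairs disagreed. Their log2 ratios in replicates 1 and 2 were -0.19 and 0.35, and -0.20 and 0.25. The SE with the block leans on a dispersion shared across genes and is not the spread between a gene's own pairs.

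*Twist1* lies on mm9 at chr12:34642536-34644682 (plus strand, 2 exons, 1 annotated transcript). It was measured at 128.2 and 139.9 CPM in WT replicates 1 and 2 and at 138.7 and 131.0 CPM in KO replicates 1 and 2. The KO libraries lay between the WT libraries. The group means were 134.0 ± 8.24 in WT and 134.8 ± 5.48 in KO (SD, n = 2), and the fold KO over WT was 1.01 with a 95% interval of 0.854 to 1.19. *Twist2*, at chr1:93698038-93744605 (plus strand), was measured at 78.9 and 78.5 CPM in WT and at 83.1 and 76.9 CPM in KO. The WT libraries fell inside the KO range, and the fold was 1.02 (95% interval 0.876 to 1.18). *Twist1* took 57.2% and 59.4% of the pair's reads per exonic base in WT and 57.9% and 58.3% in KO. The KO shares lay within the WT shares, with a difference of -0.23 percentage points (two-sided exact permutation test, p = 1.0). With 2 libraries against 2 this test cannot go below 0.333.

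*Prrx1*, at chr1:165175247-165243841 (minus strand, 7 exonic blocks, 5 transcripts), was the most abundant of the 10 in CPM. It was measured at 271.6 and 302.2 CPM in WT and at 271.7 and 289.2 CPM in KO. The groups overlapped, and the fold was 0.977 (95% interval 0.813 to 1.17). *Prrx2*, at chr2:30690492-30736761 (plus strand), was measured at 41.9 and 56.3 CPM in WT and at 41.0 and 53.5 CPM in KO. In both groups replicate 2 was the higher library, and the spread within a group was far wider than the gap between the group means of 49.1 ± 10.2 and 47.3 ± 8.82 (SD, n = 2). The fold was 0.963, with a wider 95% interval of 0.658 to 1.41. *Prrx1* took 53.3% and 48.6% of the pair's reads per exonic base in WT and 53.9% and 48.8% in KO, so the share followed the replicate number in both groups. The genotype difference was 0.35 percentage points (exact permutation test, p = 0.667). Counted as reads without division by length, *Prrx1* took 84.3% to 86.9%.

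*Snai1*, at chr2:167363695-167368314 (plus strand, 3 exons), was measured at 31.0 and 23.5 CPM in WT and at 27.2 and 29.9 CPM in KO. The KO libraries lay between the WT libraries, and the fold was 1.05 (95% interval 0.770 to 1.43). *Snai2*, at chr16:14705945-14709488 (plus strand, 3 exons), was measured at 20.2 and 18.8 CPM in WT and at 17.7 and 22.3 CPM in KO. Here the WT libraries lay between the KO libraries, and the fold was 1.02 (95% interval 0.771 to 1.36). *Snai1* and *Snai2* were each lower in KO than in WT among replicates 1 and higher in KO among replicates 2. *Snai1* took 65.7% and 61.0% of the pair's reads per exonic base in WT and 65.8% and 62.7% in KO (difference 0.87 percentage points, exact permutation test, p = 0.667). The third family member, *Snai3*, had at most 2 counts in any library.

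*Zeb1*, at chr18:5591858-5775465 (plus strand, 13 exonic blocks, 8 transcripts), varied little between libraries. It was measured at 74.8 and 78.3 CPM in WT and at 75.5 and 79.4 CPM in KO. The groups overlapped and the fold was 1.01 (95% interval 0.874 to 1.17). *Zeb2*, at chr2:44839154-44972915 (minus strand, 17 exonic blocks, 11 transcripts), was measured at 78.7 and 58.6 CPM in WT and at 82.1 and 66.5 CPM in KO. Replicate 1 was the higher library in both groups, opposite to *Prrx2*, and the groups overlapped. The group means were 68.7 ± 14.3 and 74.3 ± 11.0 (SD, n = 2) and the fold was 1.08 (95% interval 0.766 to 1.53). *Zeb1* took 60.1% and 67.9% of the pair's reads per exonic base in WT and 59.3% and 65.4% in KO (difference -1.64 percentage points, exact permutation test, p = 0.667). *Prrx1*, *Zeb1*, *Zeb2* and *Foxf1* each overlap other annotated genes, and those on the same strand could share reads with them.

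*Tcf21*, at chr10:22537085-22539934 (minus strand), had 15 and 10 counts in WT and 12 and 8 in KO, or 0.622, 0.385, 0.579 and 0.333 CPM. These values exceed the 3 counts (0.115 to 0.142 CPM) that a count of 0 would allow, but the 95% Poisson intervals of single libraries, which cover counting error only, ran from 3.45 to 24.7 counts and overlapped throughout. A change of *Tcf21* was not detectable at this depth, with a 95% interval of the fold from 0.344 to 2.36. *Foxf1*, named *Foxf1a* in the mm9 annotation at chr8:123608286-123610851 (plus strand), had 39 and 70 counts in WT and 41 and 66 in KO, or 1.62, 2.70, 1.98 and 2.75 CPM. Replicate 2 was the higher library in both groups, the groups overlapped, and the fold of 1.09 had a 95% interval of 0.562 to 2.13.

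**Figure D2:**
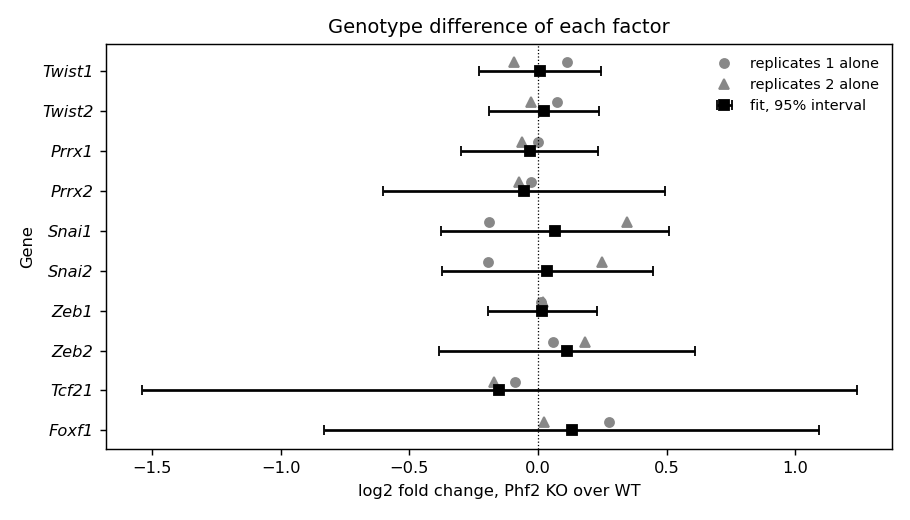
log2 fold change of each factor, Phf2 KO over WT, from the fit across all genes (black squares, bars for the 95% interval) and from replicates 1 alone (grey circles) and replicates 2 alone (grey triangles). Every interval spans 0, narrowest for *Zeb1* and *Twist2* and widest for *Tcf21* (-1.54 to 1.24), and the circles and triangles of *Snai1* and *Snai2* lie on opposite sides of 0.

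**Figure D3:**
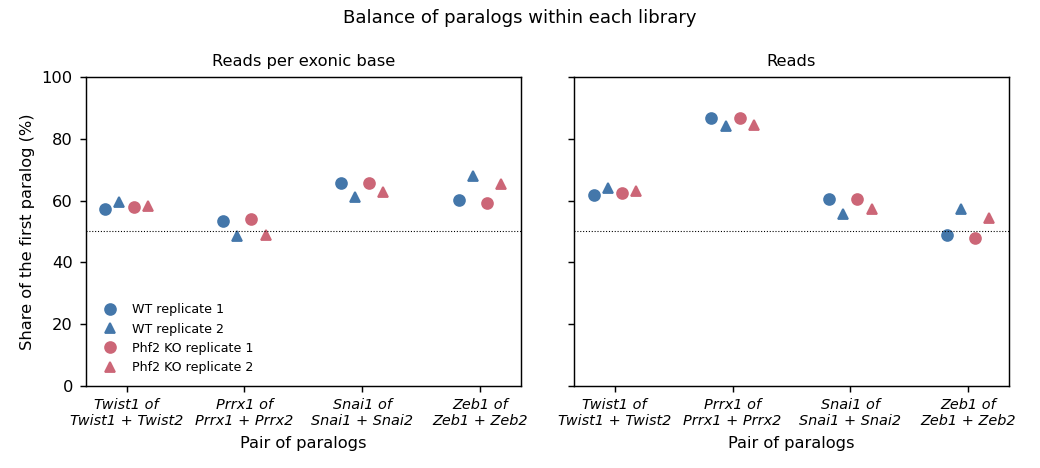
Share of the first paralog in each pair, in percent, by library, from reads per exonic base (left) and from reads alone (right), with a dotted line at an even split. Library colours and shapes are as in the plot of CPM, and shares of *Prrx1*, *Snai1* and *Zeb1* sit closer to those of the same replicate number than to those of the same genotype.

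The second comparison asks which factors differed between the replicate numbers, with genotype in the fit. *Prrx2* and *Foxf1* were higher in replicates 2 and *Zeb2* in replicates 1, and the other 7 were not called. These 3 of 10 compare with 26.2% of all genes called by the same edgeR quasi-likelihood test (12.6% higher in replicates 2 and 13.6% in replicates 1), so the count is near the background. In 7 of the 10, both replicates 2 lay above or below both replicates 1, against 49.6% of all genes. *Prrx2* was 1.33-fold higher in replicates 2 (log2 difference 0.41, SE 0.09, adjusted p = 6.3e-05), with log2 differences of 0.43 within WT and 0.38 within KO. *Zeb2* was 1.29-fold higher in replicates 1 (log2 difference, replicates 2 minus 1, of -0.37, SE 0.08, adjusted p = 0.000163), with -0.43 within WT and -0.30 within KO. *Foxf1* was 1.52-fold higher in replicates 2 (log2 difference 0.60, SE 0.25, adjusted p = 0.0675), with 0.71 within WT and 0.46 within KO. Its call was lost with DESeq2 (adjusted p = 0.774). *Prrx2* and *Zeb2* stayed called with DESeq2, at the larger adjusted p-values of 0.0387 and 0.0293. The remaining 7 had adjusted p-values from 0.304 in *Tcf21* (log2 difference -0.73) to 0.901 in *Twist1* (log2 difference 0.02).

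Other values moved with these differences. All 19 macrophage markers that passed the filter were higher in replicates 1, with a median log2 difference of -2.04, the direction of *Zeb2*. Sex also followed the number, as did whatever else the replicates 1 and the replicates 2 shared, and the part of each in the values of *Zeb2*, *Prrx2* and *Foxf1* was not tested. Within the paralog pairs, the share of *Twist1* was 1.36 percentage points higher in replicates 2, the share of *Prrx1* 4.91 points lower, that of *Snai1* 3.93 points lower and that of *Zeb1* 6.98 points higher. In each of these pairs the libraries of one number did not overlap those of the other, for which the exact permutation test gives its smallest p of 0.333. Of 41 tested transcription factors from a longer list of mesenchymal regulators, 19 (46.3%) were higher in replicates 2 and 1 was higher in replicates 1, against 12.6% and 13.6% of all genes.

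**Figure D4:**
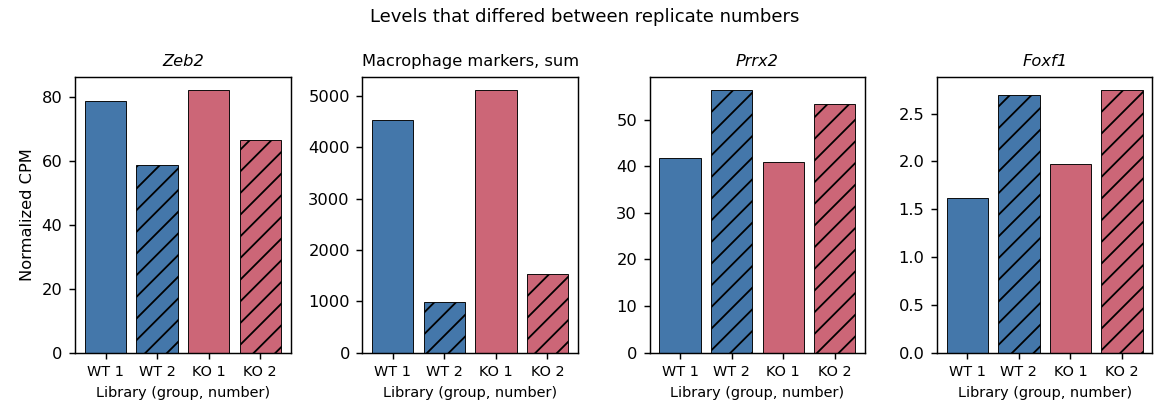
Normalized CPM in each library of *Zeb2*, of the summed macrophage markers, of *Prrx2* and of *Foxf1*, blue for WT and red for Phf2 KO, with hatched bars for replicates 2. Each bar is 1 library; *Zeb2* and the macrophage sum are higher in replicates 1, and *Prrx2* and *Foxf1* in replicates 2, in both groups.

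The third comparison asks whether the genes of 6 companion lists differed by genotype. The lists hold partners and inhibitors of bHLH factors, corepressors, protein turnover genes, epithelial genes, other mesenchymal transcription factors and mesenchymal structural genes. The last 2 are not lists of partners of the 10 factors. Of 130 genes in 6 lists, 129 were in the table and 105 passed the filter. By the fit on genotype alone 0 of the 105 were called, where 0.00732% of all genes were (9 had an unadjusted p under 0.05, against 4.21% of all genes). limma-voom also called 0, and its share over all genes is not given here. DESeq2 called 2, *Meox1* and *Loxl2*, where 0.400% of all genes it tested were called. With the replicate number as a block, edgeR called 21 (10 higher and 11 lower in KO), against 11.0% of all genes. The fit with the block rests on 1 residual degree of freedom, and the pairing of same-numbered libraries rests on the counts, so the calls that follow are those of the block alone unless DESeq2 is named. Its SEs and p-values lean on a dispersion shared across genes and can be smaller than a gene's own pairs would give. For the 21 genes, log2 fold changes and SEs are those of edgeR's fit on genotype alone unless the block is named. The adjusted p of each in that fit was 0.999. Of the 21, DESeq2 with the same block called 7 (*Id1*, *Id2*, *Id3*, *Meox1*, *Llgl2*, *Dpt* and *Loxl2*), did not call 10, and gave no adjusted p for the 4 genes *Meox2*, *Mkx*, *Hand2* and *Fap*. limma-voom with the block called 19 of the 21, all but *Zfhx4* and *Ajuba*.

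Markers of other cell types also moved with genotype in the blocked fit. Of the 19 macrophage markers tested, 10 were higher and 0 lower in KO, where 5.77% of all genes were called higher and 5.20% lower. The 10 included *Lyz2* (log2 fold change with the block 0.62) and *C1qa* (0.51). Of the 12 fibroblast markers, 2 were higher and 3 lower, and 3 of these 5, *Dpt*, *Lum* and *Fap*, are also in the list of structural genes. *Kdr* (-0.60) was lower among 4 endothelial markers tested and *Des* (-0.73) among 2 muscle markers, and 2 of 5 neural markers were higher. The part of these differences in the changes of the companion genes was not tested.

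The partners and inhibitors of the bHLH factors comprised 7 genes, of which 3 were higher and 0 lower with the block (5.77% of all genes were called higher and 5.20% lower). The 3 were the Id genes *Id1*, *Id2* and *Id3*, whose products titrate E proteins away from Twist-type partners. *Id1* was measured at 25.2 and 33.0 CPM in WT and at 36.5 and 47.3 CPM in KO, *Id2* at 67.8 and 67.9 against 82.8 and 93.8 CPM, and *Id3* at 158.1 and 216.9 against 236.8 and 319.4 CPM. Both KO libraries were above both WT libraries in all 3. The log2 fold changes were 0.53 (SE 0.20), 0.38 (SE 0.09) and 0.57 (SE 0.22), each with an adjusted p of 0.999 in edgeR's fit on genotype alone and of 2.67e-06, 0.000275 and 4.49e-09 with the block. The 4 others were not called, and the list's median log2 fold change was 0.04, against 0.0054 over all genes.

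Among the 41 other mesenchymal transcription factors tested, of 47 listed, 5 were lower and 3 higher in KO with the block. Of all genes, 5.20% were called lower and 5.77% higher. The list's median log2 fold change was 0.02. *Meox1*, a homeobox gene of the somites, was measured at 70.0 and 77.7 CPM in WT and at 29.9 and 37.6 CPM in KO. Its groups did not overlap and its log2 fold change was -1.13 (SE 0.15) on genotype alone. With the block the SE was 0.09 and edgeR's adjusted p was 3.34e-33. Its relative *Meox2* was at 4.65 and 4.89 CPM in WT and 2.70 and 2.75 CPM in KO (log2 fold change -0.81, adjusted p with the block 0.00286). The tendon factor *Mkx* (-0.63), *Bnc2* (-0.41) and *Zfhx4* (-0.21) were the other lower genes, with adjusted p-values of 1.2e-05, 0.00424 and 0.0966 with the block. DESeq2 with the block did not call *Bnc2* (adjusted p = 0.348) or *Zfhx4* (adjusted p = 0.561). The bHLH factor *Hand2* (0.44), the nuclear receptor *Nr2f2* (0.29) and the forkhead gene *Foxp1* (0.23) were higher, with 0.0102, 0.0410 and 0.0647, and DESeq2 with the block did not call *Nr2f2* (adjusted p = 0.543) or *Foxp1* (adjusted p = 0.521).

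The epithelial genes that Snail and Zeb repress were mostly near or under the detection limit. Of 28 listed, 10 passed the filter and 9 had 3 counts or fewer in every library, with *Pkp1* at 0 in all 4. *Cdh1*, the E-cadherin gene, had 2 and 1 counts in WT and 1 and 4 in KO, and *Epcam* 2 and 1 against 2 and 4. A fall or a small change of either was not detectable, and both stayed at 4 counts or fewer in every library. *Jup*, which encodes a junction protein that mesenchymal cells also use, was the most abundant at 166.5 and 235.5 CPM in WT and 220.1 and 239.1 CPM in KO, with overlapping groups. The cadherin gene *Cdh3* was also well expressed, at 146.0 and 189.6 CPM in WT and 181.7 and 204.2 CPM in KO. Its groups overlapped too, and it lay at the 93.1st percentile of the genes tested. *Llgl2*, a cell polarity gene, was the 1 gene of the 10 tested that was called with the block, where 11.0% of all genes were. It was at 22.4 and 30.4 CPM in WT and 34.6 and 42.6 CPM in KO. Its groups did not overlap, and its log2 fold change was 0.55 (SE 0.20) on genotype alone. With the block the SE was 0.10 and edgeR's adjusted p was 1.08e-06.

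Of the 25 mesenchymal structural genes, all tested, 5 were lower and 1 higher in KO with the block, against 5.20% and 5.77% of all genes. The list's median log2 fold change was -0.11. *Postn*, the matrix protein periostin, was at 6875 and 4397 CPM in WT and at 3529 and 3111 CPM in KO (log2 fold change -0.76, SE 0.25). *Lum*, the proteoglycan lumican, was at 135.0 and 93.0 CPM in WT and at 60.9 and 74.5 CPM in KO (-0.75, SE 0.22). *Loxl2*, a collagen cross-linking oxidase that also binds Snail, was at 773.9 and 686.2 CPM in WT and at 491.6 and 532.2 CPM in KO (-0.51, SE 0.11). In these 3 the groups did not overlap. With the block the SEs were 0.12, 0.08 and 0.09, and edgeR's adjusted p-values were 4.14e-07, 1.49e-15 and 5.03e-06. These SEs do not give the spread between a gene's own pairs. The log2 ratios of KO over WT in replicates 1 and 2 were -0.96 and -0.50 in *Postn*, -1.15 and -0.32 in *Lum* and -0.65 and -0.37 in *Loxl2*. DESeq2 with the block did not call *Postn* (adjusted p = 0.573) or *Lum* (adjusted p = 0.600). *Dpt*, the matrix protein dermatopontin, was also lower (-0.49), with 1.11e-05, and the protease gene *Fap* (0.48) was higher, with 0.0226. *Col1a1*, the most abundant gene of the list, was not called.

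**Figure D5:**
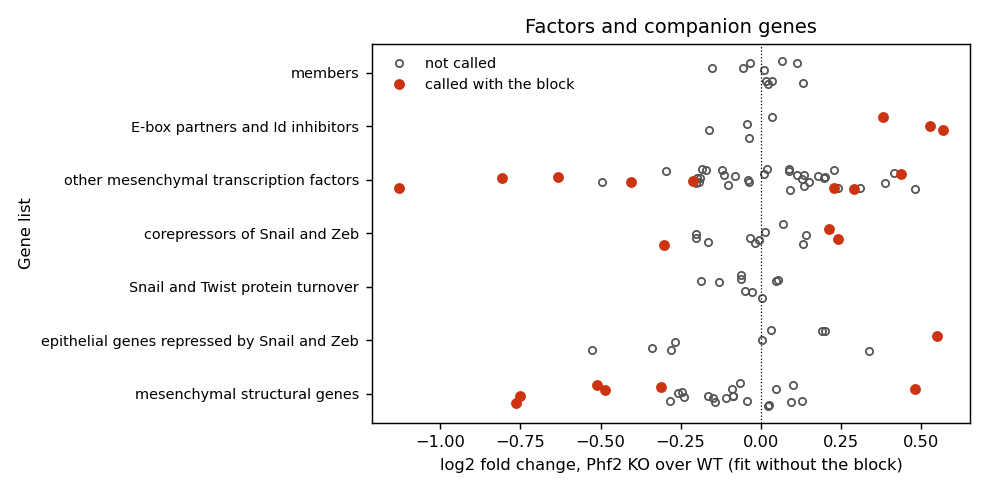
log2 fold change, Phf2 KO over WT, from the fit without the block, for the 10 factors (top row) and the tested genes of 6 companion lists, 1 point per gene, filled red where the blocked fit (replicate number as a term) called the gene. The 10 factors lie within -0.15 to 0.13 with no red point, while the 21 red points of the companion lists run from -1.13 (*Meox1*) to 0.57 (*Id3*).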

How the data were processed

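Counts of 2 WT and 2 *Phf2* KO libraries of single reads were analysed. The authors used Trim Galore for trimming, bowtie2 to discard ribosomal reads, STAR for reverse-stranded alignment to mm9 and featureCounts to assign reads to genes. The counts were deposited unnormalized, as whole numbers. Tool versions and the annotation release are not given in the sources used here. The authors' own comparison table, with DESeq2 fold changes and p-values, was not used.

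Genes were filtered with filterByExpr and scaled by TMM in edgeR 4.0.16 (R 4.3.3), and genotype was the term tested (glmQLFit, glmQLFTest). p-values were adjusted over all 13668 genes by Benjamini-Hochberg, and genes under 0.1 were called. CPM are TMM-normalized, and fold changes are those of the fit. The replicate number was tested in the same way with genotype in the fit. Alternatives were DESeq2 1.42.0, limma 3.58.1 (voom), RLE or plain library size scaling, filters of at least 1 count or at least 1 CPM in 2 libraries, a threshold of 0.05, each library left out, and the replicate number as a block. The edgeR fits on genotype alone and with the replicate block were tried on counts simulated with a common dispersion for all genes. The other fits and tests were not tried on simulated data. Paralog shares and figures used Python 3.11.15, NumPy 2.4.6, pandas 2.3.3, SciPy 1.17.1 and Matplotlib 3.10.9.

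Positions and exonic lengths came from GENCODE M1 (mm9), in which 21978 of 24391 symbols were placed, 1337 of them through a synonym. *Dub3*, listed for protein turnover, was not in the table under that symbol. The labels state no pairing of replicate numbers. Their log2 differences in WT and KO correlated across 11556 genes (mean count 50 or more; r = 0.854, a description), and sex matched within numbers, so the blocked value is given where it changes a call. All 10 factors were named, and in each companion list the genes called with or without the block, or else the 2 with the smallest p, as well as the most abundant and undetected markers. The values of 1 called structural gene are not reported here. *Snai3*, *C1qa*, *Cdh3* and *Xist* with *Ddx3y* were named after their values were seen. The factors, lists and tests were chosen with earlier results of these data known.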

Additional observations from a re-analysis of the deposited data

Results flagged for a closer look

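In 5 of the 10 factors the KO over WT difference had opposite signs in replicates 1 and replicates 2, which is what drew attention to them. The share of all genes with opposite signs was not counted, so the 5 of 10 are a description and not a trait of these factors. In none was the difference between the numbers tested, since each number holds 1 library per group. *Snai1* had log2 ratios of -0.19 in replicates 1 and 0.35 in replicates 2, which differ by 0.54 (counting standard error 0.113). *Snai2* had -0.20 and 0.25, which differ by 0.44 (counting standard error 0.135). These are the repressors of the Snail family, and the pair moved the same way in each number. *Twist1* had 0.11 and -0.09, a difference of -0.21 (0.051), and *Twist2* had 0.07 and -0.03, a difference of -0.10 (0.067). *Prrx1* had 0.00047 and -0.064, a difference of -0.064 (0.035), so its opposite sign rests on the ratio of 0.00047. The counting errors leave out the spread between cultures, which these 4 libraries do not give within a number.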

How the results depend on the processing

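The count of 0 called among the 10 factors was the same under each alternative that kept all 4 libraries. Adjusted p-values there ran from 0.466 (*Zeb2*, edgeR with the replicate block) to 0.99998 (DESeq2). *Tcf21* did not pass the filter of at least 1 CPM in 2 libraries. DESeq2 with the replicate block gave no adjusted p for *Tcf21* or *Foxf1*, so neither could be called there. With edgeR and the replicate block the fitted log2 fold changes of the factors ran from -0.15 to 0.13. In the 9 settings that keep all 4 libraries, 88 of 89 fitted values kept their direction; the exception was *Twist1* at -0.0027 on the log2 scale with library size alone. Leaving out 1 library moved every factor across 0, for *Twist1* from -0.041 to 0.057, *Twist2* -0.034 to 0.077, *Prrx1* -0.096 to 0.030, *Prrx2* -0.26 to 0.16, *Snai1* -0.14 to 0.29, *Snai2* -0.14 to 0.19, *Zeb1* -0.021 to 0.052, *Zeb2* -0.10 to 0.35, *Tcf21* -0.59 to 0.24 and *Foxf1* -0.18 to 0.53, with none called. The KO minus WT share of *Twist1* ranged from -1.35 to 0.90 percentage points, of *Prrx1* from -2.18 to 2.89, of *Snai1* from -1.48 to 3.21 and of *Zeb1* from -5.56 to 2.28, and turned in sign without WT replicate 2 and without KO replicate 1. Companion genes called numbered 0 in the fit on genotype alone and with each library left out, 2 with DESeq2 and 21 with the replicate block. In fits chosen after seeing the data, 9 were called with DESeq2 and the replicate block (7 shared with edgeR's 21; 4.00% of all genes with an adjusted p) and 22 with limma-voom and the replicate block (19 shared; 10.0% of all genes). The cause of these differences was not tested. Between replicate numbers, *Foxf1* kept its log2 difference of 0.60 with DESeq2 but not its call. That comparison could not be fitted with a library left out, which leaves no residual degrees of freedom, so its values within WT and within KO stand in. Depth limits *Tcf21* (8 to 15 counts) and *Foxf1* (39 to 70 counts) most.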

Other observations

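Corepressors and turnover genes concern how Snail, Zeb and Twist proteins act and are broken down, which mRNA levels of the 10 factors do not show. Of 13 corepressor genes, all tested, 2 were higher and 1 lower in KO with the replicate block, against 5.77% and 5.20% of all genes. *Sin3a*, a scaffold of histone deacetylase complexes, was at 59.0 and 56.1 CPM in WT and 48.5 and 44.9 CPM in KO, with no overlap (log2 fold change -0.30, SE 0.09, edgeR adjusted p = 0.0119 with the block). The LIM proteins *Wtip* (log2 fold change 0.24, 0.0664) and *Ajuba* (0.21, 0.0997), which bridge Snail to other repressors, were higher. DESeq2 with the block called none of these 3 (adjusted p = 0.329 for *Sin3a*, 0.580 for *Wtip* and 0.568 for *Ajuba*). Of 9 tested genes for the turnover of Snail and Twist proteins, 0 were called by edgeR with the block, where 11.0% of all genes were. On genotype alone 0 were called by edgeR (0.00732% of all genes), DESeq2 (0.400%) or limma-voom. The 2 with the smallest p were the F-box genes *Fbxo11* (log2 fold change -0.19, unadjusted p = 0.187 by edgeR) and *Btrc* (-0.13, unadjusted p = 0.313), and none of the 9 had an unadjusted p under 0.05.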
